A study of Bos taurus with 9 samples.

Results

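The probesets described here are those that stood higher in cultured bovine adrenal chromaffin cells after PACAP and also after TNF-alpha (TNF). A probeset is a set of short probes on an Affymetrix array that together report 1 transcript or a few related ones. Members were chosen by their measured values on all 9 arrays: the mean log2 change from untreated cells had to be at least 0.5 with PACAP and with TNF, and each of the 6 differences between a treated array and the untreated array of the same replicate number had to be at least 0.25. Of 24016 probesets, 107 met both conditions, and 150 met the condition on the means. The 3 groups, of 3 arrays each, were untreated cells, cells given 100 nM PACAP-38 for 6 h and cells given 10 nM TNF for 6 h. The cells were primary cultures from collagenase-digested bovine adrenal medulla, purified by differential plating and kept in a medium with cytosine arabinofuranoside, an inhibitor of DNA synthesis; the medium is described in the labels of the treated arrays alone, and the animals' age and any vehicle for untreated cells are not stated in the labels. The submitters call the arrays technical repeats, so errors and p-values reflect array-to-array spread only, and that spread may be technical. All values are log2 RMA values, so that 1 unit is a 2-fold difference; RMA is a method that corrects background, equalises the arrays and combines the probes of a probeset.

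PACAP is a neuropeptide released by the splanchnic nerve onto chromaffin cells, where its receptor PAC1 raises cyclic AMP and calcium and activates the ERK kinases. TNF is an inflammatory cytokine whose receptors activate NF-kappaB and the stress-activated kinases. Chromaffin cells make catecholamines, store them with neuropeptides and granins in secretory granules, and change their transcription in response to both first messengers. In cultures, more of a transcript per cell and more cells that express it cannot be told apart. The values come without gene names, and 0 probeset IDs could be matched to a gene, so members are described by rank, IDs are printed for 2 of them, and the chromaffin label was not checked against marker genes.

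Rank is by the smaller of a member's mean PACAP and TNF changes, from 1 (the largest) to 107. The PACAP changes of the 107 members ran from 0.51 to 3.83 with a median of 1.00, and the TNF changes ran from 0.50 to 3.44 with a median of 0.75; over all probesets the medians were 0.00 and -0.01. A 2-fold rise was reached by 54 members with PACAP, by 32 with TNF and by 15 with both. A 4-fold rise was reached by 9 members with PACAP and by 4 with TNF. The smaller change lay under 0.75 in 72 members, so most of the set rose modestly with at least one treatment. These sizes follow in part from the thresholds that chose the members.

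Array signals of different probesets depend on their probes as well as on the transcript, so they give no order of abundance. The members' mean untreated levels ran from 3.86 to 11.35 with a median of 7.19, against a range of 2.55 to 14.14 and a median of 6.71 over all probesets, and 67 members lay above that overall median. Only 6 members lay below the 25th percentile of untreated levels, where RMA compresses changes, and 25 lay above the 75th. After treatment the members' median level was 8.65 with PACAP and 8.21 with TNF.

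**Figure D1:**
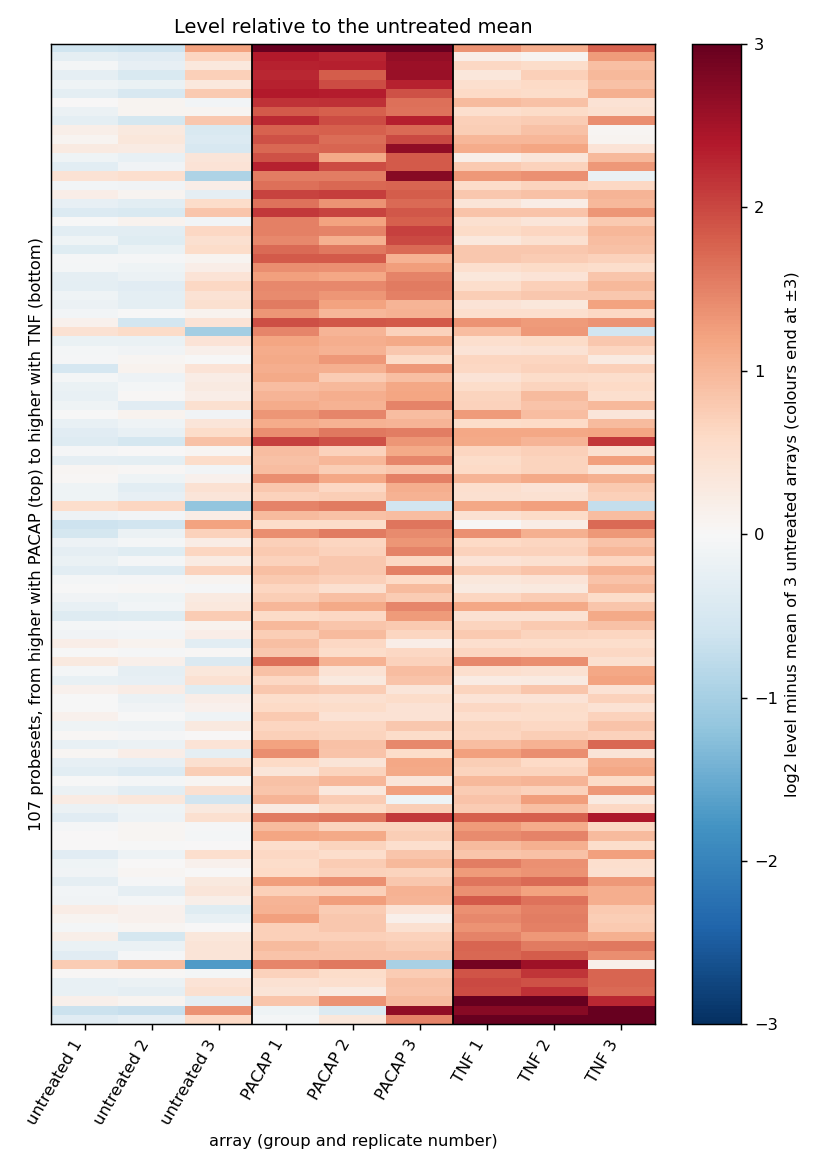
Levels of the 107 members (rows) on the 9 arrays (columns), each as the log2 level minus the probeset's mean over the 3 untreated arrays, ordered by the difference between PACAP and TNF. Rows at the top stood up to 2.42 higher with PACAP than with TNF, rows at the bottom up to 2.86 higher with TNF, and untreated replicate 3 is redder than untreated replicates 1 and 2 in many rows.

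The values below are listed in the order of replicates 1, 2 and 3. The member with the largest smaller change, Bt.2519.1.S1_at, read 6.55, 6.73 and 7.37 on the untreated arrays, 8.44, 8.50 and 9.02 with PACAP and 8.68, 8.69 and 9.31 with TNF. Every treated array lay above every untreated array, and the PACAP and TNF arrays overlapped. Its mean rose from 6.89 ± 0.43 (SD, n = 3) to 8.65 ± 0.32 with PACAP, which is 3.41-fold, and to 8.89 ± 0.36 with TNF, which is 4.03-fold. The difference of PACAP from TNF was -0.24, with a 95% interval from -0.82 to 0.34 (limma adjusted p = 0.688, and 0.0698 with the replicate number as a block). Between same-numbered arrays it was -0.24, -0.19 and -0.29.

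Members ranked 2, 6 and 9 also rose to overlapping levels with both treatments. The member ranked 2 read 7.62, 7.47 and 8.89 untreated, 10.05, 9.91 and 9.33 with PACAP and 9.14, 9.02 and 10.11 with TNF. In it the replicate 3 arrays ran against the others: untreated and TNF replicate 3 were the highest of their groups and PACAP replicate 3 was the lowest of its group. The member ranked 6 read 8.10, 8.15 and 8.73 untreated, 9.53, 9.21 and 9.76 with PACAP and 9.25, 9.37 and 10.06 with TNF, with means of 9.50 and 9.56 after treatment. The member ranked 9 read 7.44, 7.31 and 6.71 untreated, 8.80, 8.20 and 7.83 with PACAP and 8.59, 8.55 and 7.62 with TNF, and replicate 3 was the lowest array in each group. Its PACAP and TNF changes, 1.13 and 1.10, differed by 0.03 with an interval from -0.72 to 0.77.

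Low array signals were found at ranks 4 and 5. The member ranked 4 read 4.13, 3.47 and 4.43 untreated, 5.94, 5.87 and 5.85 with PACAP and 5.35, 5.28 and 5.35 with TNF. The member ranked 5, the dimmest of the set when untreated, read 3.34, 3.68 and 4.56 untreated, 5.25, 5.41 and 5.27 with PACAP and 5.22, 4.92 and 5.15 with TNF. In both, treated arrays were close together and untreated arrays spread over about 1 unit (SD 0.49 and 0.63), near the low end of the scale, where folds are understated.

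The member ranked 7 read 9.64, 9.75 and 10.54 untreated, 11.38, 11.57 and 11.51 with PACAP and 11.13, 11.13 and 11.16 with TNF. Its treated groups did not overlap with the untreated group or with each other, but its 2 changes, 1.51 and 1.16, did not differ by the test (difference 0.35, SE 0.20, limma adjusted p = 0.394). The member ranked 8 read 7.62, 7.84 and 8.18 untreated, 9.14, 9.25 and 8.69 with PACAP and 9.49, 9.58 and 9.19 with TNF. The member ranked 10 read 5.26, 5.30 and 5.55 untreated, 6.38, 6.63 and 6.39 with PACAP and 7.20, 6.99 and 6.47 with TNF. At both ranks the TNF change was the larger in value, at 1.54 against 1.15 and at 1.52 against 1.09, without a called difference.

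Among members ranked 11 to 15, all but the one at rank 12 had no called difference between the treatments. The member ranked 11 read 5.89, 5.72 and 5.98 untreated, 7.25, 7.02 and 7.36 with PACAP and 6.88, 7.00 and 6.92 with TNF, with no SD above 0.17. The member ranked 13 read 6.52, 6.65 and 7.05 untreated, 7.73, 7.88 and 8.20 with PACAP and 7.89, 7.88 and 7.58 with TNF. The member ranked 14 read 8.52, 8.58 and 8.44 untreated, 9.69, 9.65 and 9.25 with PACAP and 9.93, 9.99 and 9.45 with TNF. These 3 rose between 2.02- and 2.55-fold with either treatment. The member ranked 15 read 7.17, 7.12 and 8.41 untreated, 9.68, 9.59 and 9.43 with PACAP and 8.42, 8.42 and 8.89 with TNF, so that untreated replicate 3 came within 0.01 of the lower TNF arrays. Its difference of 0.99 in favour of PACAP had a limma adjusted p of 0.0918, and of 0.0327 with the replicate number as a block.

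Ranks 16 to 20 held 4 members with a PACAP change of 1.97 to 2.17 beside a TNF change of 0.90 to 0.96, and 1 with like changes. The member ranked 16 read 7.18, 6.96 and 8.29 untreated, 9.71, 9.44 and 9.81 with PACAP and 8.20, 8.25 and 8.87 with TNF, and untreated replicate 3 lay above TNF replicates 1 and 2. The member ranked 20 read 6.74, 6.72 and 5.99 untreated, 8.21, 8.23 and 9.14 with PACAP and 7.60, 7.66 and 6.88 with TNF. Their differences of 1.21 and 1.15 in favour of PACAP just missed the threshold (limma adjusted p = 0.0524 and 0.0601) and passed it with the replicate number as a block (0.0034 and 0.0484). The member ranked 17 read 5.22, 5.34 and 4.89 untreated, 6.54, 6.00 and 5.71 with PACAP and 6.39, 6.55 and 5.53 with TNF, and its changes were 0.93 and 1.01.

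**Figure D2:**
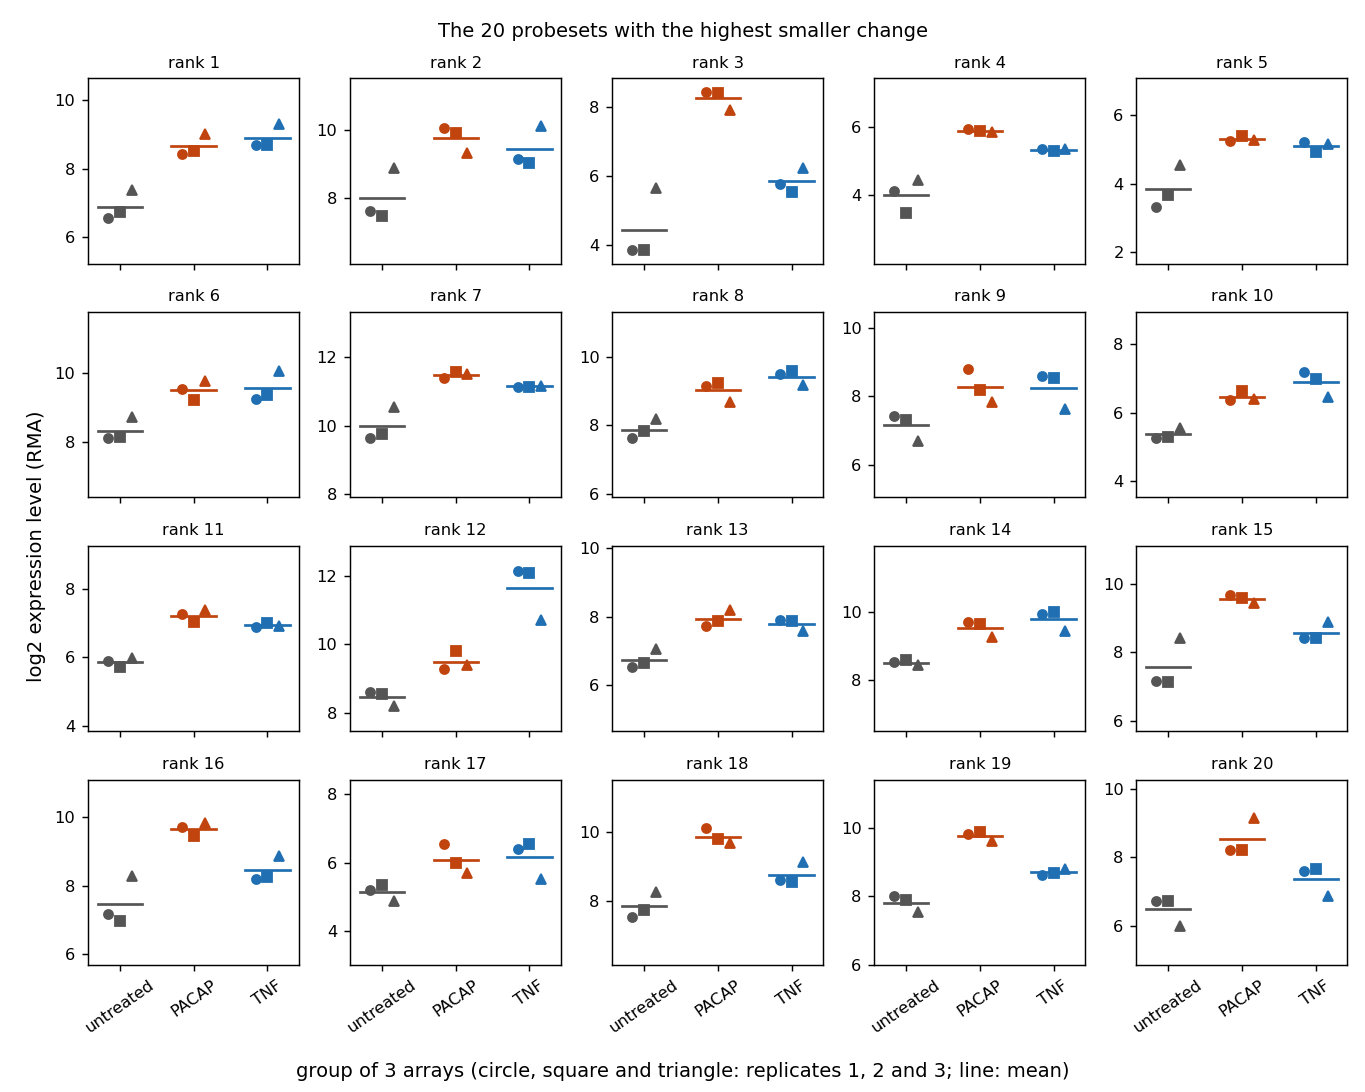
Log2 levels of the 20 highest-ranked members on each array, by group, with replicates 1, 2 and 3 as circles, squares and triangles and the group mean as a line; every panel spans the same number of log2 units. Treated means lie above untreated means in each panel, by 0.90 to 3.83, and the triangle is often the highest untreated point.

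The treatments were then compared with each other, a difference on which the rule set no threshold, although it used the same arrays. Because the rule set a minimum on both changes, probesets raised by a single treatment, and their differences, were left out. The doses differed, at 100 nM and 10 nM. Of the 107 members, 21 were higher with PACAP than with TNF and 7 were higher with TNF (limma, adjusted p under 0.05), which is 19.6% and 6.54% of them; over all probesets the shares were 3.97% and 5.1%. With the replicate number as a block, 33 members were higher with PACAP and 12 with TNF, against 6.9% and 8.47% of all probesets. The count of 28 called members fell to 17 without PACAP replicate 1, to 18 without TNF replicate 1 and to 17 without TNF replicate 2. Shares of all probesets were not counted with an array left out. All 3 PACAP arrays lay above all 3 TNF arrays in 42 members, against 11.2% of all probesets, and all 3 TNF arrays lay above all 3 PACAP arrays in 10 members, against 12% of all probesets.

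The 21 members higher with PACAP had a median change of 1.76 with PACAP and 0.65 with TNF. Compared with untreated cells, all 21 were called with PACAP but only 5 with TNF (limma, adjusted p under 0.05). The shares of all probesets were 5.95% and 1.33%. In the rest of the 21, the TNF rise was thus not called. The rule used these contrasts, so the counts are a description. The largest difference was that of Bt.16176.1.A1_at, at rank 3, which read 3.84, 3.83 and 5.65 untreated, 8.46, 8.43 and 7.93 with PACAP and 5.78, 5.54 and 6.22 with TNF. Its mean stood 14.2-fold above untreated with PACAP and 2.65-fold with TNF, and PACAP stood 2.42 above TNF (SE 0.45, limma adjusted p = 0.0107). Its TNF change from untreated was not called (limma adjusted p = 0.209, and 0.0875 with the replicate number as a block). Untreated replicate 3 overlapped with the TNF arrays in this member, and the call against TNF was lost without TNF replicate 2 (limma adjusted p = 0.054) and, in a fit added after seeing the data, with replicates 1 and 2 averaged and the replicate block kept (0.0534). Over the alternatives the limma adjusted p ran from 2.7e-06 to 0.054.

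The next largest differences in favour of PACAP came from members with TNF changes of 0.52 (rank 100) and 0.69 (rank 54). The member ranked 100 read 7.68, 7.61 and 8.60 untreated, 10.35, 10.24 and 10.59 with PACAP and 8.17, 8.04 and 9.23 with TNF, and PACAP stood 1.91 above TNF (SE 0.34, limma adjusted p = 0.0094). The member ranked 54 read 6.47, 6.28 and 6.84 untreated, 8.83, 8.87 and 9.09 with PACAP and 7.15, 7.07 and 7.44 with TNF, a difference of 1.71 (SE 0.15, limma adjusted p = 0.000321). In both, every PACAP array was above every TNF array, but in the member ranked 100 the TNF and untreated arrays overlapped.

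Members ranked 65 and 57 both stood 1.54 higher with PACAP than with TNF. The former read 6.90, 6.85 and 7.36 untreated, 9.35, 8.99 and 9.36 with PACAP and 7.54, 7.64 and 7.91 with TNF (SE of the difference 0.17, limma adjusted p = 0.000793). The latter read 4.22, 4.04 and 5.20 untreated, 6.74, 6.31 and 7.07 with PACAP and 4.84, 5.20 and 5.46 with TNF (SE 0.31, limma adjusted p = 0.0168). The call for the latter was lost without PACAP replicate 1 (0.0605), TNF replicate 1 (0.0726) or TNF replicate 2 (0.0629), in a range of 0.000768 to 0.0726 over the alternatives. In the member ranked 57 the TNF and untreated arrays overlapped. Its TNF change from untreated was not called (limma adjusted p = 0.441, and 0.067 with the replicate number as a block).

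Members ranked 18 and 19 joined a strong PACAP response to a TNF change near 2-fold. The member ranked 18 read 7.53, 7.74 and 8.26 untreated, 10.14, 9.80 and 9.68 with PACAP and 8.62, 8.54 and 9.14 with TNF. The member ranked 19 read 8.00, 7.88 and 7.53 untreated, 9.83, 9.87 and 9.61 with PACAP and 8.62, 8.69 and 8.81 with TNF. In both, the 3 groups were fully apart and PACAP stood 1.11 and 1.06 above TNF (SE 0.22 and 0.13, limma adjusted p = 0.0153 and 0.00135).

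In the other direction, the 7 members higher with TNF had a median change of 1.92 with TNF and 0.67 with PACAP. Compared with untreated cells, all 7 were called with TNF but only 3 with PACAP (limma, adjusted p under 0.05). The shares of all probesets were 1.33% and 5.95%, and these counts too are a description. The largest difference was at rank 77, where the untreated arrays read 5.84, 5.94 and 6.78, the PACAP arrays 6.13, 6.52 and 7.68 and the TNF arrays 9.54, 9.52 and 9.84. TNF raised this member 10.9-fold, while its PACAP change was 0.59 and its PACAP and untreated arrays overlapped. PACAP minus TNF was -2.86 (SE 0.38, limma adjusted p = 0.00239).

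The member ranked 12 read 8.62, 8.54 and 8.20 untreated, 9.29, 9.80 and 9.40 with PACAP and 12.13, 12.07 and 10.71 with TNF. The 3 groups were fully apart, the rises were 2.06-fold with PACAP and 9.09-fold with TNF, and PACAP minus TNF was -2.14 (SE 0.34, limma adjusted p = 0.0057). The member ranked 60 read 8.31, 8.32 and 8.22 untreated, 8.98, 8.84 and 9.04 with PACAP and 10.17, 10.43 and 10.02 with TNF. In it the untreated arrays differed by no more than 0.10, and PACAP minus TNF was -1.25 (SE 0.11, limma adjusted p = 0.000278).

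The remaining 79 members had no called difference between the treatments. In 59 of them the 95% interval of the difference lay within 2-fold in either direction, so that a larger difference was outside the interval; in the other 20 it reached further. The absolute difference was under 0.25 in 34 of the 107 members. PACAP was above TNF in all 3 same-numbered pairs of arrays in 51 members and below in all 3 in 22, and the sign was mixed in 34. These signs were not counted over all probesets, so they are not read as a trait of the members.

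**Figure D3:**
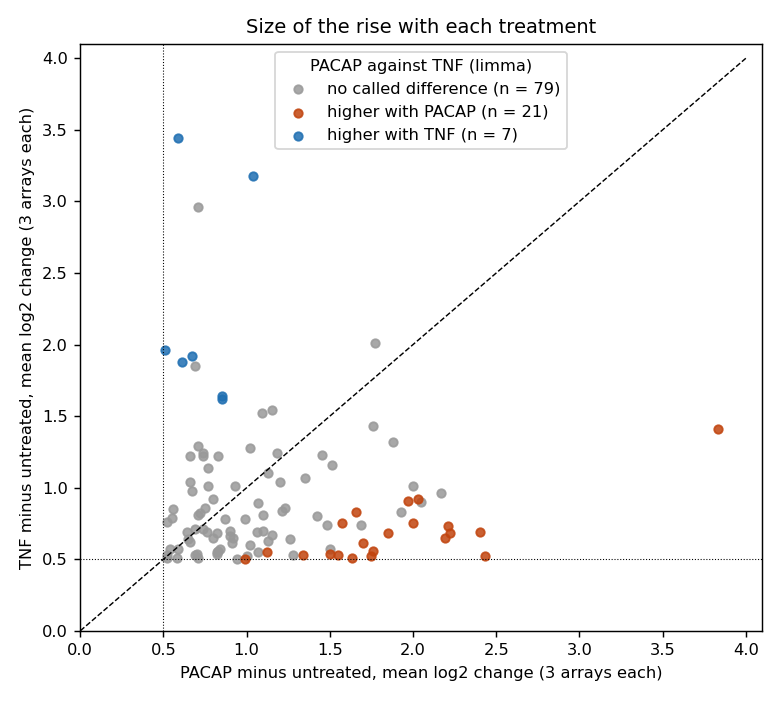
Mean log2 change from untreated with PACAP (horizontal axis) and with TNF (vertical axis) of the 107 members, coloured by the limma call of PACAP against TNF; the dotted lines mark the minimum of 0.5 and the dashed line equal changes. Both axes share the 3 untreated arrays, and the dotted lines, not the data, give the cloud its corner; 21 members lie to the right as higher with PACAP and 7 toward the top as higher with TNF.

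Affymetrix bovine IDs carry the number of the sequence cluster from which a probeset was designed, and probesets with 1 number usually report the same or related transcripts. The 107 members carried 101 cluster numbers, of which 6 were carried by 2 members each. The 2 members of such a pair are separate probes read on the same RNA, not replicates of a treatment. Both had to pass the same thresholds, so part of the likeness of their changes was set by the rule, and it is given as a description. The members ranked 23 and 24 stood at 5.86 and 7.74 untreated, and their PACAP changes were both 0.85 and their TNF changes 1.64 and 1.62. For the pair at ranks 74 and 101 the TNF changes were 1.88 and 1.96 and the PACAP changes 0.61 and 0.51, and both were higher with TNF than with PACAP, by 1.27 and 1.45 (limma adjusted p = 0.00317 and 0.00596). Both pairs are among the 7 members called higher with TNF, so those 7 probesets carry fewer than 7 cluster numbers.

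Within each replicate number, the pair at ranks 74 and 101 showed the same order in both probesets, from untreated to PACAP to TNF. The member ranked 74 read 6.65, 6.69 and 7.27 untreated, 7.32, 7.37 and 7.76 with PACAP and 8.85, 8.78 and 8.61 with TNF. The member ranked 101 read 4.78, 4.72 and 5.49 untreated, 5.39, 5.27 and 5.86 with PACAP and 6.96, 7.20 and 6.70 with TNF. In both, TNF arrays lay above all others. The PACAP arrays lay above all untreated arrays at rank 74 but overlapped with them at rank 101. Neither PACAP change was called against untreated cells (limma adjusted p = 0.0548 and 0.206). With the replicate number as a block the values were 0.0247 and 0.137. The pair at ranks 26 and 40 leaned the other way, with PACAP changes of 1.66 and 1.69 and TNF changes of 0.83 and 0.74. In the 3 other pairs the changes of the 2 probesets differed by at most 0.27 with either treatment.

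**Figure D4:**
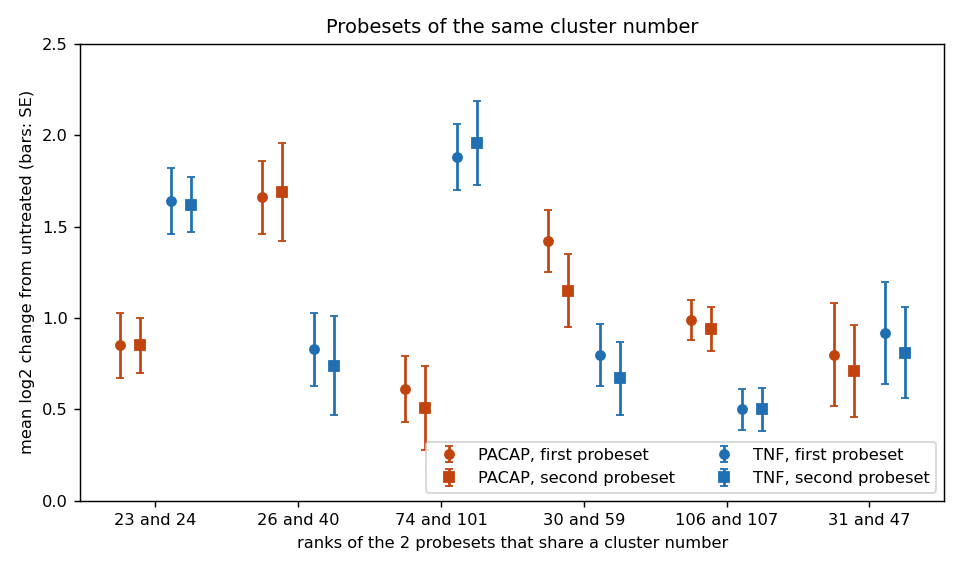
Mean log2 change from untreated (vertical axis, bars are moderated SE, 3 arrays a group) with PACAP and with TNF for the 6 pairs of members that share a cluster number, named by rank. The circle and the square of 1 colour lie within 0.27 of each other in every pair.

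The members' cluster numbers were also carried by 25 probesets that were not members. Both mean changes were above 0 in 21 of them, against 32.2% of all probesets that were not members. Their median changes were 0.40 with PACAP and 0.29 with TNF at a median untreated level of 6.20. Of the 25, 12 were called higher with PACAP and 1 with TNF (limma, adjusted p under 0.05), against 5.95% and 1.33% of all probesets. By ending of the ID, 103 members were standard probesets (_at) and 4 were shared between transcripts of a gene (_a_at); none ended in _s_at or _x_at, the endings of probesets that several genes may share, which made up 0.979% and 0.379% of all probesets.

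Replicate 3 stood apart over all probesets. Within untreated cells, replicates 1 and 2 correlated at 0.9985 and replicate 3 correlated with them at 0.99 and 0.9899, across probesets, which are not independent replicates. In the members the untreated array of replicate 3 exceeded the mean of untreated replicates 1 and 2 by a median of 0.41 over the members, against a signed median of 0.01 over all probesets, which normalization holds near 0; with PACAP and TNF the same quantity was 0.02 and 0.04 in the members. Untreated replicate 3 was the highest untreated array in 78 members, or 72.9%, against 42.2% of all probesets, and in 10 members it lay above TNF replicates 1 and 2. The members' median PACAP change was 1.14, 1.05 and 0.82 between arrays numbered 1, 2 and 3, and their median TNF change was 0.87, 0.88 and 0.59. The change in replicate 3 was the smallest of the 3 in 75 members with PACAP and in 83 with TNF. The rule set thresholds on these same differences and on their means, so they are described and not tested. The share over all probesets was not counted. What sets replicate 3 apart is not given in the labels.

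**Figure D5:**
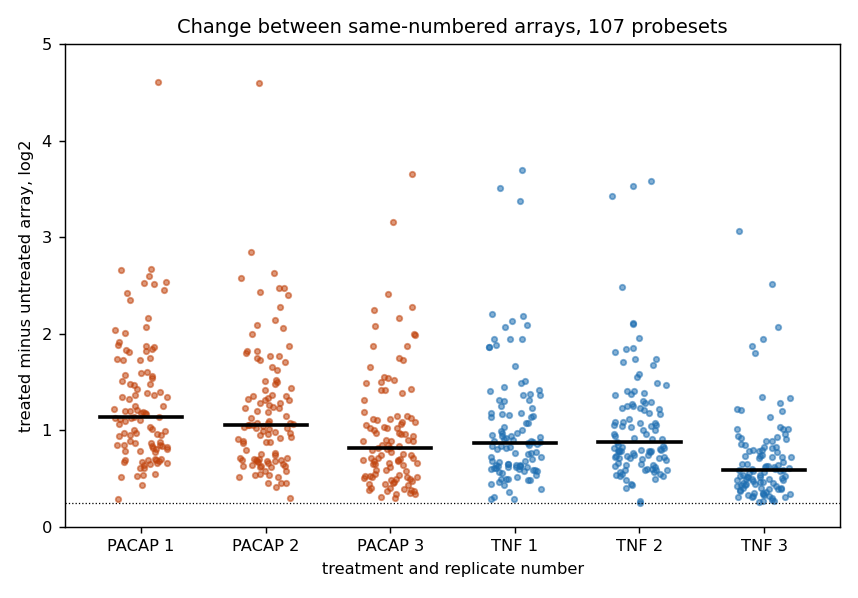
Treated minus untreated log2 level between arrays of the same replicate number for the 107 members (points, spread sideways at random) with the median as a bar; the dotted line is the minimum of 0.25 set by the rule. The medians in replicate 3, 0.82 with PACAP and 0.59 with TNF, are the lowest for either treatment.

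Replicate 3 also decided much of who was a member. Of the 43 probesets that met the condition on the means and failed at least 1 of the 6 differences between same-numbered arrays, 41 failed in replicate 3. With TNF 36 failed and with PACAP 15, of which 8 failed with both. With replicate 3 left out the rule found 269 probesets, of which 172 were not among the 107, against 113 without replicate 1 and 103 without replicate 2. When every treated array was set against every untreated array, whatever its number, 49 members remained.

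The members nearest the threshold had TNF changes close to the minimum. The last 3 ranks had TNF changes of 0.51, 0.50 and 0.50 and PACAP changes of 1.63, 0.99 and 0.94. Just outside on the means were a probeset with a PACAP change of 1.60 and 2 with PACAP changes of 0.50, each with a smaller change of 0.497 to 0.499. Just outside on single arrays were 3 probesets with a lowest pair difference of 0.245, 0.238 and 0.232, of which the first had mean changes of 1.02 and 1.03. The lowest pair difference among the members was 0.253.

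By the fit across all probesets, 81 members were called higher with PACAP than in untreated cells and 42 with TNF (limma, adjusted p under 0.05); 5.95% and 1.33% of all probesets were. The rule used these contrasts, so nothing is read from the counts. Both calls were made for 36 members and neither for 20. With the replicate number as a block the counts were 103 and 87 (9.19% and 2.81% of all probesets), both calls were made for 83 and neither for 0. Shares of all probesets with both calls or neither were not counted, and nothing is read from the joint counts either. All 3 PACAP arrays lay above all 3 untreated arrays in 94 members (14.2% of all probesets), and all 3 TNF arrays did in 82 (6.52%). The count of 42 with TNF became 16, 17 and 65 without untreated replicates 1, 2 and 3, and 16 and 15 without TNF replicates 1 and 2. For these fits too, shares of all probesets were not counted.

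Applied to 1 treatment at a time, the same thresholds were met by 1073 probesets with PACAP and by 522 with TNF. The 107 members are 9.97% of the former and 20.5% of the latter. The 2 lists share the untreated arrays, so their overlap is not independent of that choice.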

How the data were processed

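The deposited table holds log2 expression values that the authors made with Affymetrix Expression Console and RMA, per the submitters' processing notes; no version or setting is stated there. The table held 24128 probesets; 112 controls were left out. Members, gene lists and tests were chosen with earlier results of these data known. The gene lists, marker lists and promoter motifs could not be applied, because IDs could not be matched to genes; Agilent arrays were not analysed here.

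Group means were fitted to all 9 arrays with limma 3.58.1 in R 4.3.3 (lmFit, eBayes; 6 residual degrees of freedom), two-sided, with Benjamini-Hochberg adjustment over the 24016 probesets within each contrast and a threshold of 0.05. Changes are differences of mean log2 values; SE is the moderated standard error, and intervals are 95%. The fit of PACAP against untreated was tested on simulated data with independent values and planted changes. Simulated arrays did not deviate together as the real ones do, so that test cannot show how the fit handles this. The number of arrays limits the precision.

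Array values are given for the 20 highest-ranked members and up to 5 with the largest called difference between treatments in each direction; members nearest the threshold, members that share a cluster number and those with the widest spread are described as well, the last 2 kinds chosen after their values were seen.

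Same-numbered arrays of different groups deviated together from their group means, with correlations of 0.23 to 0.65, so arrays of 1 number were treated as paired in the block fits. Replicates 1 and 2 of different groups also deviated together, in places more than same-numbered arrays (TNF 1 with PACAP 2 at 0.61, TNF 1 with PACAP 1 at 0.23), so the numbers separate replicate 3 from the rest and hardly replicate 1 from 2. No label explains them, and replicates 1 and 2 resembled each other closely within groups (correlations of 0.9962 to 0.9985 across probesets, which are not independent replicates). Alternatives are in the closing section.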

Additional observations from a re-analysis of the deposited data

How the results depend on the processing

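Without replicate 1, 2 or 3 the rule found 103 to 269 probesets; it found 15 with both mean changes at least 1 and 49 with all pairs of arrays compared, and within 1.5 times of 107 with quantile normalization, median centring, cyclic loess or the means alone (113 to 150). Members called with TNF numbered 42, but 87 with the replicate block, 98 with array weights, 24 with the 6 arrays compared, 15 at an adjusted p under 0.01, and 15 to 65 with 1 array left out. Members called between PACAP and TNF numbered 28, but 45 with the replicate block, 53 with array weights, 15 at an adjusted p under 0.01, and 17 to 40 with 1 array left out. Members called with PACAP numbered 81, and 61 to 103 over the alternatives planned. In fits added after seeing the data, with replicates 1 and 2 averaged and the replicate block kept, 15 members were called with TNF. On replicates 1 and 2 alone, also fitted after seeing the data, 101 were called with TNF and 65 between the treatments. Except with the replicate block, shares of all probesets were not counted for these alternatives, so the counts are not read as traits of the members. For single members, alternatives were run on the changes of ranks 1 to 20 and on the 10 called differences between the treatments that the rule names (the 5 largest in each direction), and none of these turned its sign. Calls were lost in 5 of 197 values of the 10 differences, in 9 of 394 values with PACAP and in 32 of 394 with TNF. Both sets of 394 include ranks that had no call before any alternative, and so none to lose. For that reason these shares understate how often a call was lost. The 10 differences were the largest in each direction among the 28 called, so their share does not stand for the other called members. With TNF the member ranked 6 lost its call in 9 of 20 settings and that ranked 7 in 8 of 20. Low-end compression by RMA and 3 arrays a group limit what the folds of dim members can show.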

Other observations

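Some members varied widely between replicates; 2 of them are given here, and they were singled out once their values had been seen. The member ranked 55 read 5.87, 6.07 and 3.40 untreated, 6.57, 6.69 and 4.14 with PACAP and 7.97, 7.65 and 5.27 with TNF. Replicate 3 lay over 2 log2 units below the others in every group, and within each replicate the order was TNF, PACAP, untreated. For this member PACAP against TNF gave a limma adjusted p of 0.59, and of 0.000294 with the replicate number as a block. The member ranked 45 read 4.76, 4.71 and 6.76 untreated, 5.29, 5.01 and 8.07 with PACAP and 8.13, 8.14 and 8.83 with TNF. Here replicate 3 lay above the others, and TNF exceeded PACAP by over 2.8 in replicates 1 and 2 and by 0.76 in replicate 3 (limma adjusted p = 0.141, and 0.00575 with the block). Replicate 3 was the highest array of every group in 33 members, or 30.8% against 14.6% of all probesets, and the lowest of every group in 13, or 12.1% against 11.7%.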
